A study of Mus musculus with 69 samples.

Results

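The 4 voltage-gated sodium channel genes Scn1a, Scn2a, Scn3a and Scn9a were followed through the hippocampus of 69 male mice. They were found by gene name, and all 4 are among the 9930 genes of the count table held here. The animals formed 8 groups of genotype, rearing and age. At P66 (postnatal day 66, adult) there were 7 separated Cdh13 knockout, 7 control knockout, 10 separated wildtype and 7 control wildtype animals. At P22 (postnatal day 22, the day of weaning) there were 10 separated knockout, 9 control knockout, 11 separated wildtype and 8 control wildtype animals. Separated litters (MS) were taken away from their mother daily for 3 h between day 1 and day 14, and control litters (Ctr) were handled only. All animals came from 2 cohorts named in the labels, and each gave 1 RNA-seq library. Cdh13 encodes an adhesion protein of the cadherin family. The labels name the genotypes as knockout (ko) and wildtype (wt) and give neither the allele nor the strain. The count table used here runs from chromosome 1 into chromosome 8 and stops at a broken record, so levels are relative to the genes of that stretch. The level of Cdh13 was not analysed here, and the genotype labels stand unchecked by it.

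Voltage-gated sodium channels open when a membrane is depolarised, and their brief inward current makes the rising phase of the action potential. Each channel has 1 pore-forming alpha subunit, which the 4 genes encode, and smaller beta subunits that adjust gating and surface level. In neurons the channels are packed at the axon initial segment, where the scaffold protein ankyrin G anchors them. Scn2a encodes the alpha subunit of excitatory axons, most prominent early in life, and Scn1a the one on which fast-spiking inhibitory interneurons depend. Scn3a is known as a subunit of the fetal and young brain, and Scn9a as the subunit of peripheral pain-sensing neurons.

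The 4 genes lie together on mouse chromosome 2 (build GRCm38), within 1177845 bases. In order along the chromosome these are Scn3a (ENSMUSG00000057182.14, chr2:65457118-65567627, minus strand), Scn2a (ENSMUSG00000075318.12, chr2:65620771-65767447, plus strand), Scn1a (ENSMUSG00000064329.13, chr2:66270778-66440840, minus strand) and Scn9a (ENSMUSG00000075316.11, chr2:66480080-66634962, minus strand). The genes Csrnp3, Galnt3 and Ttc21b stand between Scn2a and Scn1a, and Scn7a, an atypical family member, follows Scn9a. All 4 transcripts are long. The exons of Scn1a, Scn2a, Scn3a and Scn9a cover 11146, 12732, 12459 and 12772 bases in GENCODE M21, more than those of at least 94.3% of the genes in the table. The paralogs differ enough in sequence to be told apart by most reads. Of all 50-base stretches of their exons, 4.03% (Scn1a) to 6.45% (Scn3a) also occur in another of the 4 genes. Scn9a shares 180 exon bases with an antisense gene, Gm13629, and reads of the 2 cannot be told apart there, since no source used here states whether strand was counted.

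Promoters are shown for Scn2a and Scn1a, the pair whose levels moved most closely together between animals, and for Scn9a, whose level differed with age. Each is 300 bases from 250 before to 50 after the RefSeq start (GRCm38.p6). RefSeq has 2 Scn2a promoters in the table, of which the upstream one is given. Capitals mark the motifs found on either strand.
Scn2a, chr2:65620519-65620818, plus strand: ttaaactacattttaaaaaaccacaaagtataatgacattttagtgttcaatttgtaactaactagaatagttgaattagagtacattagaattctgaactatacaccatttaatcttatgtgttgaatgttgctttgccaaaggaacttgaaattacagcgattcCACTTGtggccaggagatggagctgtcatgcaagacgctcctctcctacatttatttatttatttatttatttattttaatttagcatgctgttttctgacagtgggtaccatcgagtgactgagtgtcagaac
Scn1a, chr2:66440788-66441087, minus strand: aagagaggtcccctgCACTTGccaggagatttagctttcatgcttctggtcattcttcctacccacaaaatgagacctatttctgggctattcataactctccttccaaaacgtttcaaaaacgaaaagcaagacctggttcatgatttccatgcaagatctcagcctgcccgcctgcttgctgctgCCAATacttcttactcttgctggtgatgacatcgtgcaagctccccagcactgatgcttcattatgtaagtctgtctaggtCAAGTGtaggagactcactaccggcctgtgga
Scn9a, chr2:66634913-66635212, minus strand: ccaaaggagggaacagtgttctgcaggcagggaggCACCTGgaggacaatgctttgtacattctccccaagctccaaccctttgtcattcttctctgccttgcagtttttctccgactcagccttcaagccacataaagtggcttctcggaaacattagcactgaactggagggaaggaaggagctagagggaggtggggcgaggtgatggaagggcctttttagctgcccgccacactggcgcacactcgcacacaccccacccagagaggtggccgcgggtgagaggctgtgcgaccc
The windows were searched on both strands for the TATA box written as TATAAA, the CCAAT box, the GC box written as GGGCGG, the E-box written as CANNTG, and the core of the cAMP response element written as TGACG. The E-box occurred once in Scn2a, at 84 bases before the start, in Scn1a at 235 bases before and 18 after the start, and in Scn9a once, 215 bases before it. It occurs in 72.3% of all 32851 promoter windows of the table. CCAAT occurred in Scn1a only, 63 bases before the start (37.4% of all windows), while TATAAA (13.6%), GGGCGG (35.7%) and TGACG (20.8%) were in none of the 3 windows. The GC content was 33.0% for Scn2a, 47.3% for Scn1a and 57.3% for Scn9a, against a median of 52.7%. This Scn2a window was lower in GC than all but 2.24% of windows. The other Scn2a window, which begins at base 65668436, has 47.7% GC, a TATAAA match 84 bases before its start and no E-box. The Scn2a and Scn1a windows align best over 31 columns with 25 identical bases, which begin at the E-box in both. That stretch holds the longest run the 2 windows share, GCCAGGAGAT, found in 24 of all windows (0.0731%). Scn1a and Scn9a share another run of the same length, GTCATTCTTC, found in 19 windows (0.0578%). The other Scn2a window and that of Scn1a share at most 8 bases in a row. Each run was picked as the longest its pair shares, and pairs of other genes were not compared. Whether such likeness is unusual was thus not tested.

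Library totals lay between 11.3 M and 16.4 M counts over the held genes (1 M is 1000000 counts), with a median of 13.3 M. No library was a copy of another of its group: the chi-square per degree of freedom was at least 4.47 in all 272 pairs within groups. Hippocampal neuron markers were present in every library. Slc17a7 (the glutamate transporter of excitatory terminals) had a median of 3168 CPM at P66 and 3584 CPM at P22. CPM are counts per M of library total, after TMM scaling of the totals. Prox1, a marker of dentate granule cells, had 262 CPM at P66 and 321 CPM at P22. Of the 4 markers of peripheral sensory neurons in the table, Mrgprd had no count in 62 of 69 libraries, while Tac1, a neuropeptide gene that brain neurons also use, had 11.5 to 41.2 CPM. The summed level of the 4 was 13.4 to 37.9 CPM at P66 and 15.8 to 44.6 CPM at P22.

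Scn2a was the most abundant of the 4 in every group, followed by Scn1a, Scn3a and Scn9a. Per kilobase of exon, the mean level over all 69 libraries was 59.9 ± 7.0 CPM for Scn2a, 25.2 ± 3.20 for Scn1a, 14.2 ± 1.87 for Scn3a and 2.11 ± 0.363 for Scn9a (SD, n = 69). Of the summed level per kilobase, Scn2a made up 59.1 ± 1.37%, Scn1a 24.8 ± 1.1%, Scn3a 14.01 ± 0.853% and Scn9a 2.08 ± 0.259%. Scn9a, best known from peripheral neurons, was thus measured in each hippocampal library, its lowest value being 13.1 CPM.

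For Scn2a, the lowest, median and highest levels at P66 were 420, 705 and 926 CPM in separated knockout, 693, 768 and 884 in control knockout, 674, 750 and 836 in separated wildtype and 659, 782 and 799 in control wildtype animals. At P22 they were 599, 748 and 999 CPM in separated knockout, 598, 737 and 832 in control knockout, 688, 754 and 843 in separated wildtype and 719, 836 and 944 in control wildtype animals. All 8 ranges overlapped their neighbours in the order of group means. The highest mean was 838 ± 84.1 CPM in control wildtype at P22 and the lowest 712 ± 154 CPM in separated knockout at P66, a ratio of 1.18.

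For Scn1a, the lowest, median and highest levels at P66 were 173, 281 and 353 CPM in separated knockout, 252, 289 and 355 in control knockout, 251, 300 and 333 in separated wildtype and 249, 289 and 330 in control wildtype animals. At P22 they were 206, 284 and 351 CPM in separated knockout, 220, 257 and 294 in control knockout, 233, 278 and 303 in separated wildtype and 243, 293 and 332 in control wildtype animals. Groups overlapped throughout, with the lowest mean of 254 ± 25.3 CPM in control knockout at P22. The highest was 300 ± 28.7 CPM in separated wildtype at P66.

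For Scn3a, the lowest, median and highest levels at P66 were 99.5, 172 and 202 CPM in separated knockout, 146, 179 and 213 in control knockout, 158, 185 and 211 in separated wildtype and 165, 189 and 205 in control wildtype animals. At P22 they were 137, 172 and 232 CPM in separated knockout, 127, 164 and 200 in control knockout, 154, 166 and 207 in separated wildtype and 160, 189 and 220 in control wildtype animals. The gene known as the fetal subunit averaged 179 ± 23.0 CPM at P66 (n = 31) and 175 ± 23.7 CPM at P22 (n = 38), a difference smaller than the spread between animals.

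For Scn9a, the lowest, median and highest levels at P66 were 13.1, 27.0 and 33.4 CPM in separated knockout, 27.1, 29.8 and 31.9 in control knockout, 23.7, 30.2 and 35.2 in separated wildtype and 23.8, 30.5 and 37.6 in control wildtype animals. At P22 they were 18.8, 24.9 and 33.2 CPM in separated knockout, 18.02, 23.8 and 29.1 in control knockout, 20.3, 24.6 and 30.9 in separated wildtype and 21.5, 27.8 and 32.2 in control wildtype animals. In each of the 4 genotype and rearing groups the P66 median stood above the P22 median, although the ranges overlapped. Its group means spanned a ratio of 1.31, against 1.17 to 1.18 for the other genes. In the order of group means of each gene, all 7 gaps between neighbours were under 1 SD of either group.

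**Figure D1:**
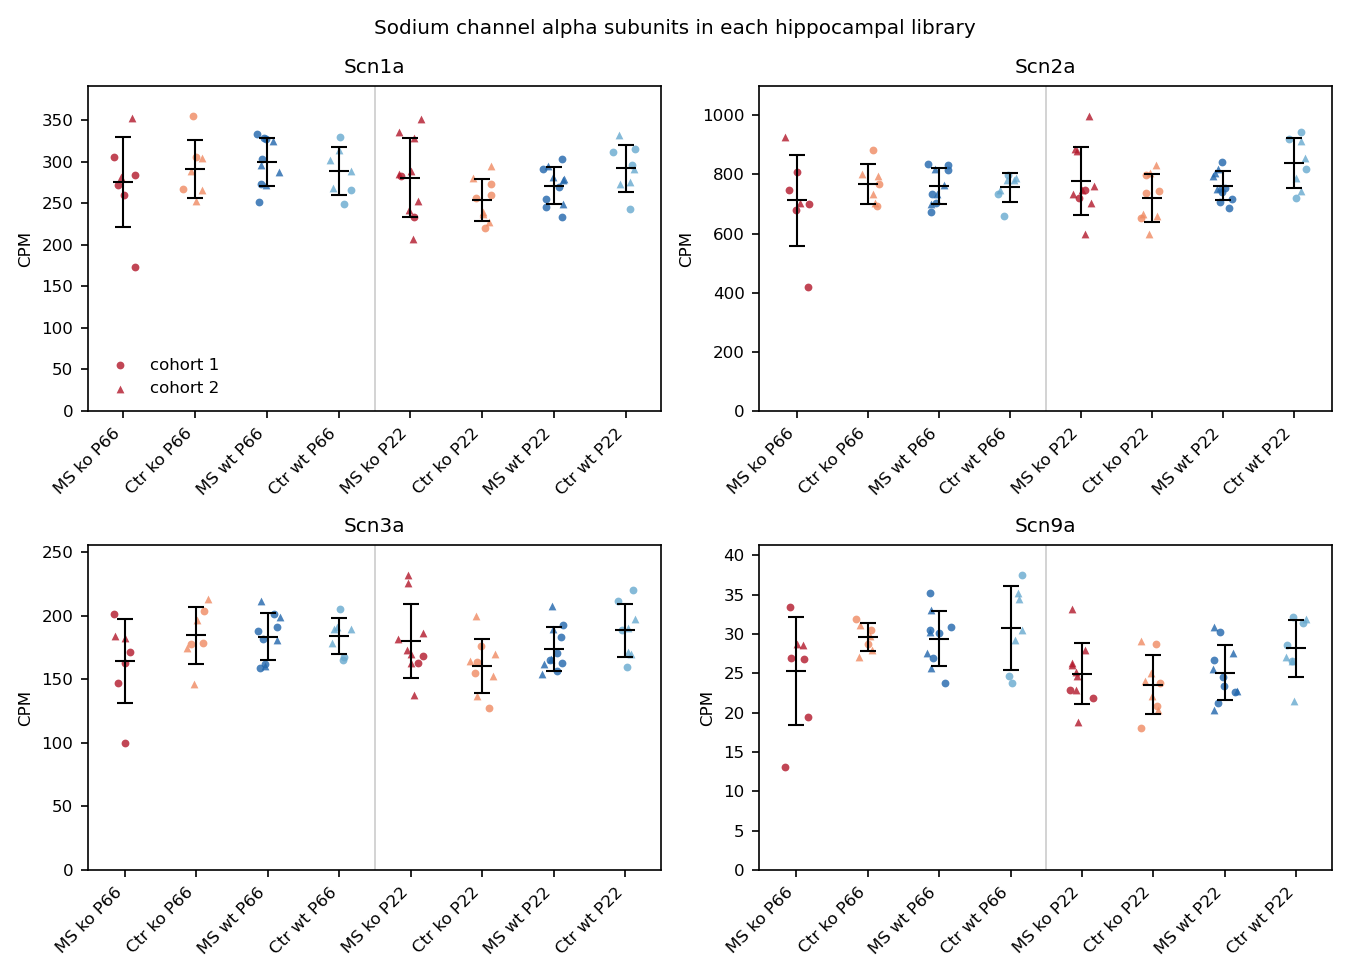
Level of each gene in CPM (vertical axes from 0) in every library, by group. Circles are cohort 1 and triangles cohort 2, and bars give the mean ± SD. One separated knockout library at P66 is the lowest of all 69 for each gene, at 420 CPM for Scn2a and 13.1 CPM for Scn9a.

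The separated knockout library 56 of cohort 1 at P66 was the lowest of all 69 for all 4 genes, with 173 CPM of Scn1a, 420 of Scn2a, 99.5 of Scn3a and 13.1 of Scn9a. Its total of 14.1 M counts was within the range of the others. At P22 library 36 of cohort 2, also separated knockout, was the highest for all 4 genes in its group, and library 23 of cohort 2 was the lowest. The 4 genes thus moved up and down together between animals of 1 group.

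This shared movement was measured on deviations of log2 CPM from the mean of each group and cohort. Scn1a and Scn2a were the closest pair, with Pearson's r = 0.95 (Spearman's rho = 0.96, n = 31) at P66 and r = 0.92 (rho = 0.89, n = 38) at P22. Both passed a two-sided permutation test within group and cohort (adjusted p = 2.4e-05 for each, over 12 tests in all for the 2 ages). Scn2a and Scn3a had r = 0.85 at P66 and 0.83 at P22, and Scn3a and Scn9a had r = 0.85 at P66 and 0.73 at P22. Scn1a and Scn3a gave r = 0.81 at P66 and 0.78 at P22. The weakest pairs were those of Scn9a with Scn1a (0.77 at P66, 0.53 at P22) and with Scn2a (0.76 at P66, 0.59 at P22). All 12 tests passed, with a highest permutation adjusted p of 0.00123. Pairs with other genes were not tested in this way. Without the 2 libraries farthest from the median, r was 0.93 at P66 and 0.88 at P22 for Scn1a and Scn2a, and between 0.36 and 0.76 for the other pairs.

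The movement of the 4 genes went along with that of long transcripts in general. A length score was computed for each library as the mean log2 CPM of the longest 10% of tested genes minus that of the shortest 10%, without the 4 genes. Its r with the deviations of Scn1a, Scn2a, Scn3a and Scn9a was 0.90, 0.94, 0.88 and 0.77 at P66, and 0.75, 0.76, 0.87 and 0.46 at P22. Spearman's rho was lower, at 0.87, 0.88, 0.75 and 0.50 at P66, and 0.66, 0.65, 0.79 and 0.44 at P22. The library with the lowest levels also had the lowest score, 2.70, against 3.12 as the median of its group. RNA integrity was not analysed here, and what moves the score was not tested. After the score was also removed, Scn1a and Scn2a kept r = 0.74 at P66 (permutation adjusted p = 0.0002) and 0.81 at P22 (6e-05). Scn3a and Scn9a kept r = 0.57 at P66 (permutation adjusted p = 0.0127) and 0.74 at P22 (6e-05). Scn2a and Scn3a kept r = 0.52 at P22 (permutation adjusted p = 0.0369). By rank this last pair did not pass (rho = 0.32, permutation adjusted p = 0.152). Without the 2 libraries farthest from the median its r was 0.30. The other 7 tests of r no longer passed, with r between 0.12 and 0.42.

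**Figure D2:**
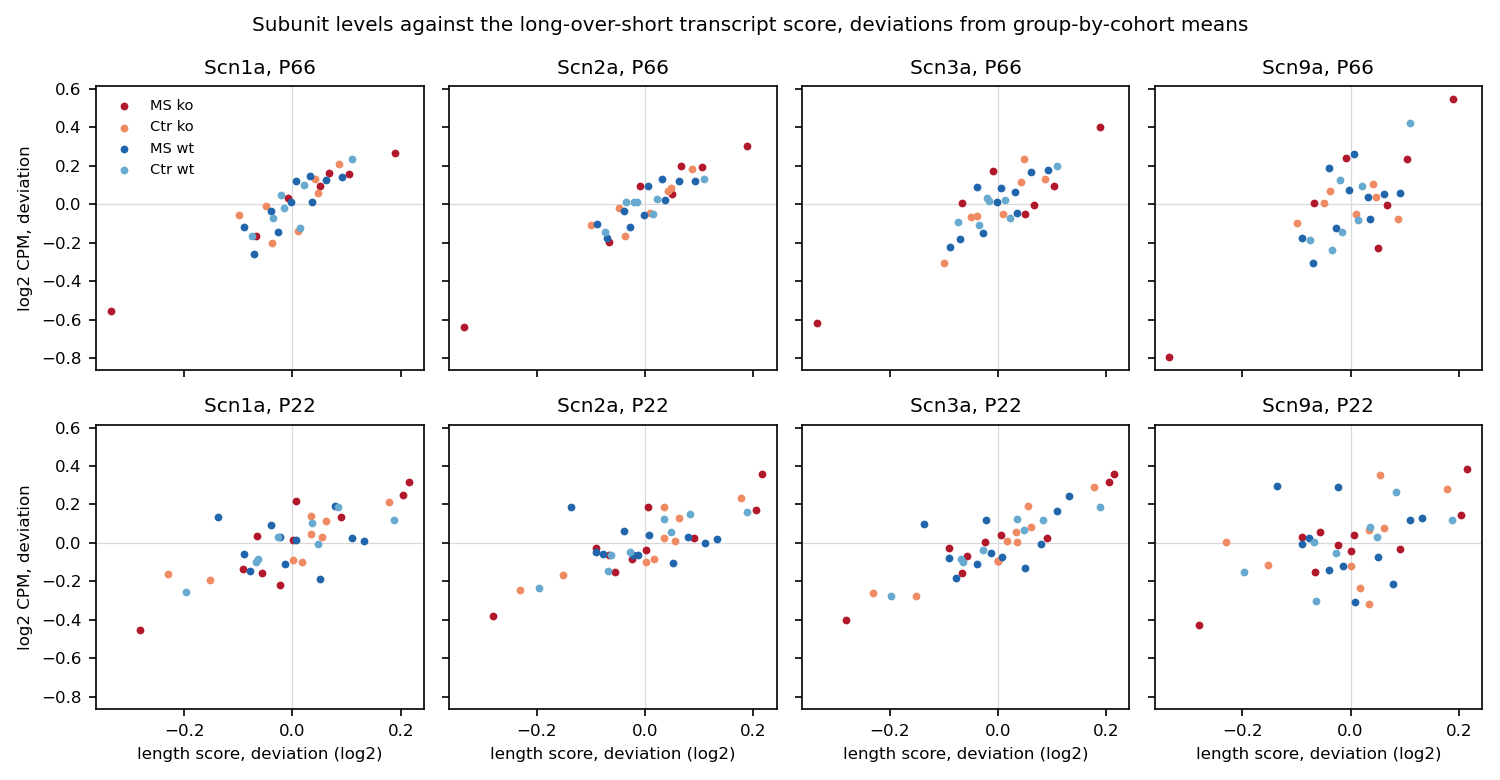
Deviation of each gene's log2 CPM (vertical) against the deviation of the length score (horizontal, log2), both from the mean of the group and cohort, for P66 (top) and P22 (bottom). Points are libraries coloured by genotype and rearing. The points rise together in all 8 panels, most loosely for Scn9a at P22 (r = 0.46).

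**Figure D3:**
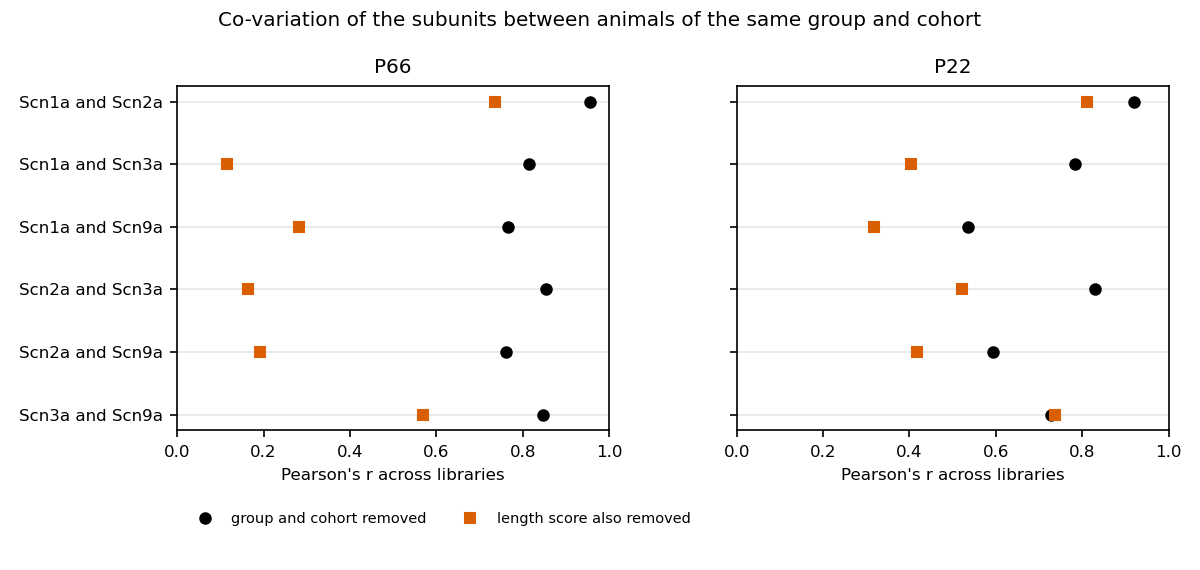
Pearson's r for each pair of genes across 31 libraries at P66 and 38 at P22. Black circles are deviations from group and cohort means, and orange squares the same after the length score was also removed. After removal, the pairs Scn1a with Scn2a and Scn3a with Scn9a were the 2 highest at both ages (0.74 and 0.57 at P66, 0.81 and 0.74 at P22).

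The genes whose levels were most like those of the 4 were themselves mostly long. Over 69 libraries and 6825 genes, the raw log2 CPM of Scn1a had its highest r with Ttbk2 (0.92), 4932438A13Rik (0.90) and Dennd5b (0.90). Scn2a had them with Ubr3 (0.93), Arfgef1 (0.90) and 2310035C23Rik (0.90), Scn3a with Mga (0.92), Usp53 (0.91) and Mysm1 (0.90), and Scn9a with Rif1 (0.85), Gm14399 (0.84) and Cntln (0.84). Their exons cover 2561 bases (Gm14399) to 32279 bases (4932438A13Rik). On deviations from group and cohort means, Scn2a ranked first of the 6825 genes for Scn1a (r = 0.94), ahead of Dennd5b (0.92) and Ttbk2 (0.91). For Scn2a the order was Ubr3 (0.96), Scn1a (0.94) and Slc4a10 (0.93). Scn3a was most like N4bp2l2 (0.93), Mga (0.93) and Usp53 (0.92), and Scn9a most like B3galt2 (0.83), Rif1 (0.82) and Ppig (0.81). The remaining pairs of the 4 ranked lower. For Scn1a, Scn3a ranked 117 and Scn9a 626, and for Scn2a they ranked 129 and 695. For Scn3a, Scn2a ranked 167, Scn1a 328 and Scn9a 365. For Scn9a, Scn3a ranked 16, Scn2a 204 and Scn1a 271. These values describe libraries that share the length score, and no test was made on them.

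Age changed Scn9a, whereas Scn1a, Scn2a and Scn3a did not pass the test. Scn9a averaged 28.8 ± 4.81 CPM at P66 (SD, n = 31) and 25.3 ± 3.88 CPM at P22 (n = 38), and 26 of 31 P66 libraries were above the P22 median of their own genotype and rearing. The fitted log2 difference was 0.18 ± 0.06 (SE), with an adjusted p of 0.00507 by edgeR's quasi-likelihood test with Benjamini-Hochberg adjustment over 7131 genes. Of all tested genes, 52.0% passed between the ages, so that 1 of the 4 sodium channel genes is below the share of the table. The log2 difference was 0.08 for Scn1a (95% interval -0.01 to 0.17), 0.03 for Scn3a (-0.06 to 0.12) and -0.04 for Scn2a (-0.12 to 0.04). In cohort 1 alone the Scn9a difference was 0.18 and the call was lost (edgeR adjusted p = 0.18), and in cohort 2 alone it was 0.23 (edgeR adjusted p = 0.00759). With the length score as a covariate it was 0.16 (edgeR adjusted p = 0.00317), and Scn2a then passed at -0.07 (edgeR adjusted p = 0.0179). Without the separated knockout library 56 of cohort 1 at P66, Scn1a passed at 0.10 (edgeR adjusted p = 0.0323).

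Within control knockout animals Scn9a passed, at 0.33 ± 0.11 (SE, edgeR adjusted p = 0.025). All 7 P66 libraries were above the P22 median there, and 28.1% of all genes passed. This call did not hold in either cohort alone (0.41 with edgeR adjusted p = 0.249 in cohort 1, 0.27 with 0.139 in cohort 2), nor without library 55 of cohort 1 at P22 (0.28) or library 30 of cohort 1 at P66 (0.30), and it was lost with the length score as a covariate (0.22, edgeR adjusted p = 0.0814). Scn3a, at 0.20 in this group, passed without library 96 of cohort 2 at P22 or library 76 of cohort 2 at P66 (0.24 each). The Scn9a difference was 0.04 in separated knockout, 0.23 in separated wildtype and 0.12 in control wildtype animals, and none of the 4 genes passed in these groups, where 19.2%, 30.8% and 18.9% of all genes did. In separated wildtype animals Scn9a passed once any 1 of 5 libraries was left out (0.23 to 0.28). These were libraries 51 of cohort 1 and 75 of cohort 2 at P22, libraries 55 of cohort 1 and 64 of cohort 2 at P66, and the separated knockout library 56, which shares the fit. No test of a difference between these changes passed for any of the 4 genes, either by genotype (0.01 to 0.07) or by rearing (-0.09 to -0.02). By edgeR, 0 of 7131 genes passed the test of age by genotype (2.15% at an unadjusted p under 0.05, and 0 by DESeq2 and by limma-voom), and 0.0421% the test of age by rearing.

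Some ratios between the subunits differed between the ages. This comparison was added after the values were seen. Ratios of other gene pairs were not tested. With 52.0% of all genes called between the ages, such a difference need not be particular to these genes. Scn1a reached a median of 0.442 of the Scn2a level per kilobase at P66 (range 0.393 to 0.471, n = 31), against 0.400 at P22 (0.371 to 0.458, n = 38). By group, the mean ratio at P66 was 0.444 ± 0.0170 in separated knockout, 0.432 ± 0.0233 in control knockout, 0.449 ± 0.0121 in separated wildtype and 0.435 ± 0.0223 in control wildtype animals. At P22 it was 0.411 ± 0.0248, 0.403 ± 0.0142, 0.406 ± 0.0220 and 0.398 ± 0.0152 in the same groups (SD). Each P66 group mean was above each P22 group mean, and 30 of 31 P66 libraries were above the P22 median. The log2 ratio was 0.13 ± 0.02 (SE) higher at P66, which passed a two-sided permutation test within genotype, rearing and cohort (adjusted p = 0.00015 over 30 ratio tests, from the smallest p that 100000 permutations can give). It also passed in cohort 1 alone (0.16, permutation adjusted p = 0.0003) and in cohort 2 alone (0.09, 0.00495).

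Scn2a also fell relative to Scn9a, of which it was 26.2 times the level per kilobase at P66 (21.3 to 35.0) and 30.1 times at P22 (24.5 to 41.5). The log2 difference was -0.23 ± 0.04 (SE, permutation adjusted p = 0.00015), and it passed in both cohorts. Scn3a over Scn9a differed by -0.15 between P66 and P22 (permutation adjusted p = 0.0019) and Scn2a over Scn3a by -0.08 (0.0336). Scn2a over Scn3a did not pass within either cohort (permutation adjusted p = 0.128 in cohort 1, 0.318 in cohort 2). Scn3a over Scn9a passed in cohort 2 (-0.16, permutation adjusted p = 0.0402) and not in cohort 1 (-0.14, 0.128). Scn1a over Scn3a (0.05) and Scn1a over Scn9a (-0.10) did not pass. As a share of the summed level per kilobase, Scn1a made up 25.6 ± 0.873% at P66 and 24.2 ± 0.888% at P22. Scn2a made up 58.0 ± 0.938% at P66 and 59.9 ± 1.06% at P22. Of the 24 ratio tests by genotype or rearing, 0 passed.

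**Figure D4:**
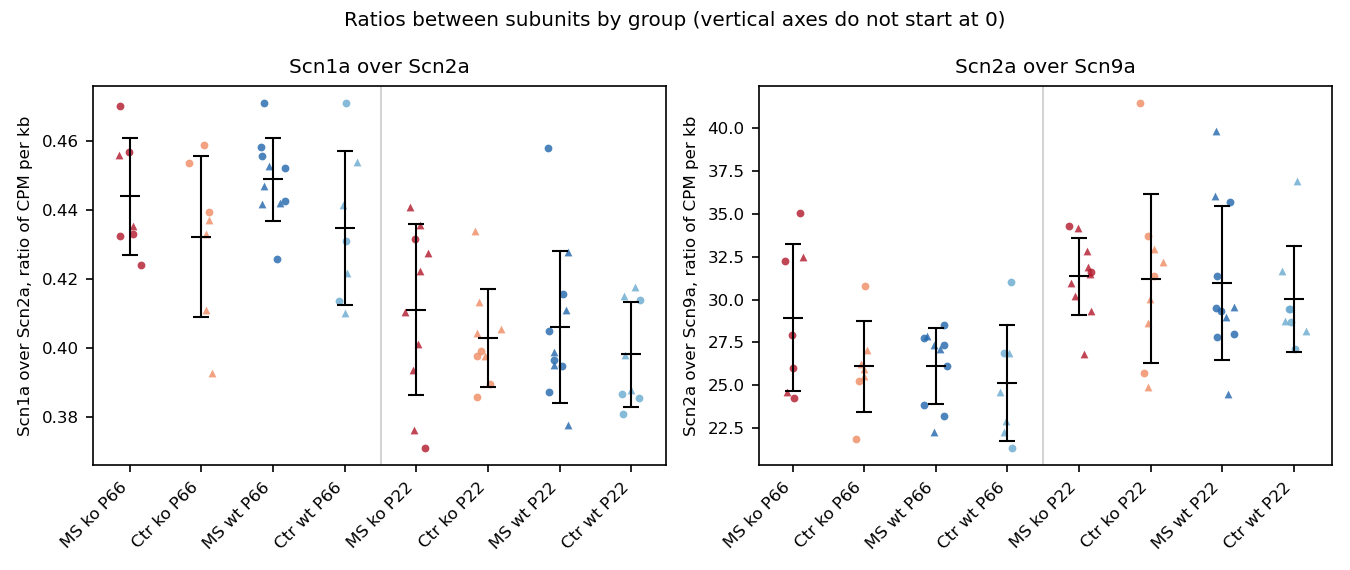
Ratio of the levels per kilobase of Scn1a to Scn2a (left) and of Scn2a to Scn9a (right) in each library, by group. Circles are cohort 1, triangles cohort 2, and bars the mean ± SD. Scn1a over Scn2a lies higher at P66 (median 0.442) than at P22 (0.400), and Scn2a over Scn9a lower (26.2 against 30.1).

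Scn7a, the neighbour of Scn9a, rose by 0.31 with age (edgeR adjusted p = 0.00674). Of 40 listed partners of the channels and parts of the axon initial segment, 21 were tested, of which 3 were higher and 9 lower at P66, together 12 of 21, near the 52.0% called over all genes. The median was -0.06, against 0.01 over all tested genes. Nfasc, the adhesion protein neurofascin of the initial segment, fell by 0.75 (edgeR adjusted p = 5.3e-27). Csnk2a1, a subunit of casein kinase 2, which phosphorylates sodium channels, fell by 0.13, as did Dlg2, a synaptic scaffold, by 0.13. Of the genes between Scn2a and Scn1a, Galnt3 (0.26) and Ttc21b (0.08) rose and Csrnp3 did not pass (0.04).

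Other cell types moved between the ages as well. Of the 10 oligodendrocyte and myelin markers tested, 9 were lower at P66, with a summed level of 1411 to 3379 CPM at P66 and 2672 to 6252 CPM at P22. All 4 immature neuron markers tested were lower, with sums of 469 to 741 CPM at P66 and 552 to 802 CPM at P22, among them Igfbpl1 (-2.0) and Draxin (-1.37). Of 10 pan-neuronal markers 3 were higher and 5 lower, of 16 interneuron markers 2 and 7, and of 12 excitatory neuron markers 4 and 4, against 52.0% of all genes called. All 4 markers of oligodendrocyte precursors and all 5 of astrocytes were lower at P66. No marker of these lists was at 0 in all libraries. Fewer cells of a type and less RNA per cell cannot be told apart in whole tissue, and the part of these shifts in the sodium channel values was not tested. With a pan-neuronal score as a covariate Scn9a kept its call.

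None of the 4 genes passed the test of genotype at either age. At P22 the knockout minus wildtype difference was -0.14 ± 0.07 for Scn9a, -0.10 ± 0.06 for Scn3a, -0.10 ± 0.05 for Scn2a and -0.09 ± 0.05 for Scn1a (log2, SE, 19 knockout and 19 wildtype animals). In cohort 1 the values were -0.26 for Scn9a and -0.19 for Scn3a, and in cohort 2 they were -0.07 and -0.04. With the length score as a covariate Scn3a was at -0.05, Scn2a at -0.06 and Scn1a at -0.05. Scn9a lay between -0.26 and -0.07 over all other settings, the length score among them. Without the score its 95% interval was -0.28 to -0.005 (unadjusted edgeR p = 0.0427). The edgeR adjusted p without the score was 0.832 for each of the 4 genes. Of 7036 genes, 0 passed (0% called, 4.11% at an unadjusted p under 0.05, and 0 by DESeq2 and by limma-voom). At P66 the differences were -0.14 for Scn9a, -0.08 for Scn3a, -0.06 for Scn1a and -0.04 for Scn2a (14 knockout and 17 wildtype animals), with edgeR adjusted p between 0.706 and 0.873, where 0.0571% of 7001 genes passed. The 95% intervals at P66 reached from -0.32 to 0.05 for Scn9a and from -0.17 to 0.10 for Scn2a. Without the separated knockout library 56 of cohort 1, these 2 differences were -0.08 and 0.01.

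None of the 4 genes passed the test of maternal separation either. At P22 the log2 differences between 21 separated and 17 control animals lay between -0.05 (Scn9a) and 0.02 (Scn3a), with edgeR adjusted p of 0.999, and 0% of genes passed (3.08% at an unadjusted p under 0.05, and 0 genes by DESeq2 and by limma-voom). At P66 they lay between -0.13 (Scn9a) and -0.01 (Scn1a) between 17 separated and 14 control animals, with edgeR adjusted p between 0.62 and 0.979, where 0.371% of genes passed. Without the separated knockout library 56 of cohort 1 they were -0.08 for Scn9a, -0.03 for Scn3a, 0.0022 for Scn2a and 0.03 for Scn1a.

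The 4 genes shared a direction in the test of whether separation acted differently in knockout and wildtype animals. At P22 the interaction was 0.27 ± 0.12 for Scn3a, 0.24 ± 0.10 for Scn2a, 0.24 ± 0.11 for Scn1a and 0.24 ± 0.14 for Scn9a (log2, SE). For Scn2a, 6 of 10 separated knockout libraries were above the control knockout median, and 1 of 11 separated wildtype libraries above the control wildtype median. None passed the adjustment (edgeR adjusted p = 0.584 to 0.604), and 0% of 7036 genes did, by edgeR, DESeq2 or limma-voom. At an unadjusted p under 0.05, 3 of the 4 genes passed, against 8.47% of all genes. The 4 genes are not separate evidence, since they move together between animals.

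The length score had the same order of groups as Scn1a, Scn2a and Scn3a at P22. It was 3.12 ± 0.146 in separated knockout, 3.06 ± 0.128 in control knockout, 3.08 ± 0.0886 in separated wildtype and 3.18 ± 0.118 in control wildtype animals (SD). With the score as a covariate the interaction was 0.04 for Scn3a, 0.05 for Scn2a, 0.03 for Scn1a and 0.09 for Scn9a. Of 8 choroid plexus markers 0 had a positive interaction (median -1.26), and none passed the test. Their summed level was 60.3 to 497 CPM in separated knockout, 63.6 to 576 in control knockout, 76.3 to 348 in separated wildtype and 90.8 to 387 in control wildtype animals, and none was at 0 in all libraries. Of 10 oligodendrocyte markers 0 were positive (median -0.35, none passed), with sums of 2672 to 5647, 3523 to 5842, 3611 to 6252 and 2851 to 4741 CPM in the same groups. With choroid plexus and oligodendrocyte scores as covariates, the sodium channel interactions were 0.22 to 0.27, against 0.24 to 0.27 without any score. What lies behind these values was not tested.

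At P66 the interaction was -0.16 for Scn9a and Scn3a, -0.13 for Scn1a and -0.11 for Scn2a, with edgeR adjusted p between 0.795 and 0.825, where 0% of 7001 genes passed (4.53% at an unadjusted p under 0.05, and 0 by DESeq2 and by limma-voom). Without the separated knockout library 56 of cohort 1 the values were -0.06 to -0.02. With the length score as a covariate they were 0.06 to 0.09, the opposite direction. The change of the interaction with age, a test added after the values were seen, was -0.43 to -0.35 (edgeR adjusted p = 0.32 to 0.379), where 0.0140% of 7131 genes passed. It was -0.06 to 0.01 with the length score as a covariate.

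**Figure D5:**
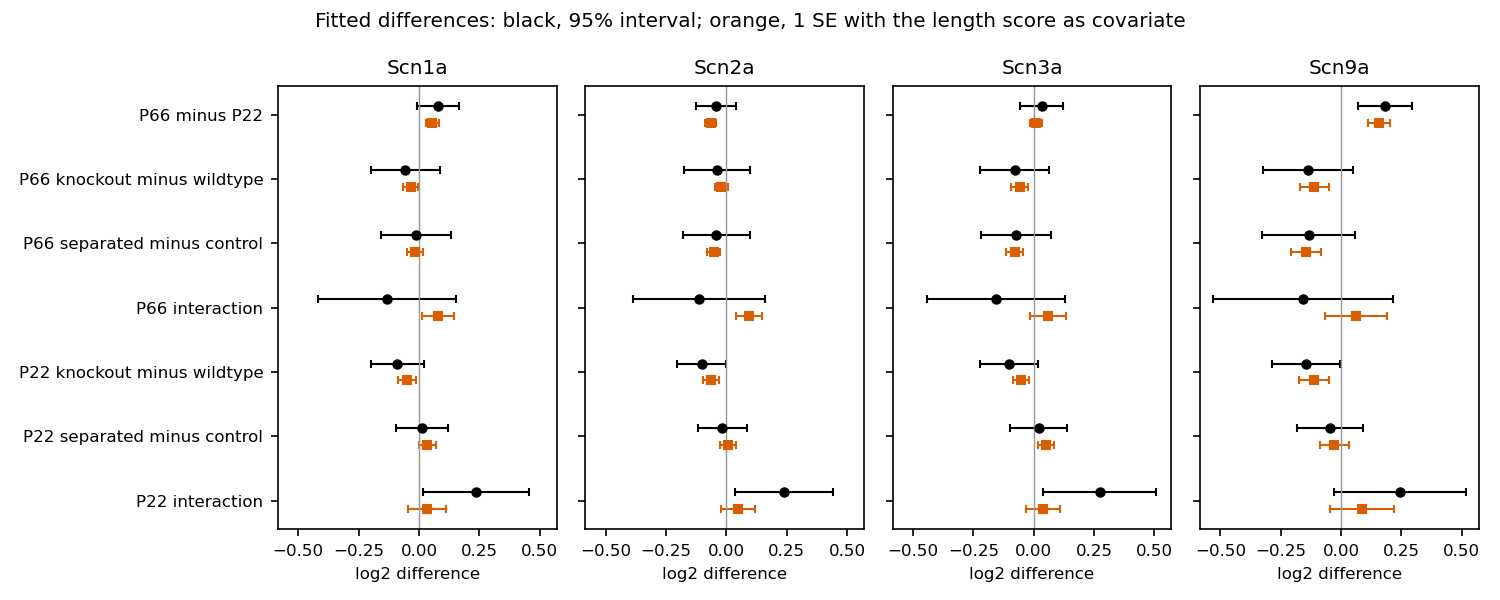
Fitted log2 differences of the 4 genes in 7 comparisons (horizontal axis). Black points have 95% intervals, and orange squares are the values with the length score as a covariate, with 1 SE. Scn9a between the ages (0.18) is the call among the black points, and the P22 interaction was 0.03 to 0.09 with the score and 0.24 to 0.27 without it.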

How the data were processed

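Each of the 69 male animals gave 1 hippocampal RNA-seq library. The deposited table holds raw counts, not normalized by the authors, with a column per animal. Tools named in the submitters' processing notes are limma 3.34.9, edgeR, FastQC 0.11.4 and cutadapt 1.16. For aligner, counter, strand setting and genome build the answer is "not given in the sources used here". Of the gene IDs 99.5% are in GENCODE M21, 96.5% of these at the same place, so positions are on GRCm38. The table stops within chromosome 8 at 1 broken record, which was left out, so CPM rests on part of the genome.

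Genes were tested with edgeR 4.0.16 (R 4.3.3): filterByExpr (minimum count 10, total 15), TMM and glmQLFTest with group and cohort terms, within each age for genotype, rearing and their interaction, and over all libraries for age. Adjusted p is Benjamini-Hochberg over all tested genes, with a threshold of 0.05. DESeq2 1.42.0 and limma-voom (limma 3.58.1) were alternatives, with other normalization, filters and covariates. Log2 CPM used a prior count of 2. The code was tested on simulated data. In the comparison of ages (7109 genes), 80.3% of genes changed 1.2 times and 95.5% of those changed 1.5 times were recovered. In that of genotype at P22 (7015 genes) the shares were 61.2% and 92.4%. Many genes were changed at once and no cohort effect was simulated, so the power for a single changed gene was not measured.

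The 4 genes and the gene lists were chosen with earlier results of these data known. Named are the 4 genes throughout, other sodium channel genes with a count, up to 4 called genes per list (some of both are not reported here), the 3 genes most like each of the 4, and table genes between them. The labels do not tie animals to litters, so p-values measure the spread between animals, which may share a dam.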

Additional observations from a re-analysis of the deposited data

How the results depend on the processing

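Of the values recomputed under other settings, 752 stayed the same. For differences, ratios and correlations this means the same direction and side of the threshold, also where neither fit passed. For counts it means equal or within 1.5 times, and for levels per kilobase a shift under 1 SD. Another 48 changed sign, 14 lost their call and 1 gained one. The remaining 17 were counts that changed by over 1.5 times or from or to 0, and levels per kilobase that shifted by at least 1 SD. Per kilobase of the longest transcript, Scn2a was at 85.4 CPM, Scn1a at 33.5, Scn3a at 18.5 and Scn9a at 2.74. Per kilobase of coding sequence they were at 127, 46.6, 30.3 and 4.52 CPM. Ratios of levels per kilobase thus depend on the length chosen. The alternatives with the length score, the ratio tests, the change of the interaction with age and the removal of single libraries in the comparisons of age were added after the data were seen. The values here are log2 differences unless said otherwise, and where a call or a sign changed the cause was not tested.

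Calls changed as follows. The age difference of Scn9a was 0.18 in cohort 1 alone (edgeR adjusted p = 0.18), and within control knockout animals it was 0.41 in cohort 1, 0.27 in cohort 2 and 0.22 with the length score, with no call in any of these. Scn2a gained a call between the ages with the length score (-0.065). The number of the 4 genes called between the ages, 1 in all, was 0 in cohort 1 alone and 2 with the length score. In control knockout animals it was 0 in each cohort alone and with the length score, and 3 at an adjusted p under 0.1. In separated wildtype animals it was 1 with the length score and 1 at an adjusted p under 0.1, against 0. Of the ratios, Scn2a over Scn3a lost its call in cohort 1 (-0.079) and in cohort 2 (-0.081), and Scn3a over Scn9a in cohort 1 (-0.14), which left 2 ratios past the threshold in cohort 1 alone. With the length score removed, the pairs that no longer passed at P66 were Scn1a with Scn3a (r = 0.12), Scn1a with Scn9a (0.28), Scn2a with Scn3a (0.16) and Scn2a with Scn9a (0.19). At P22 they were Scn1a with Scn3a (r = 0.40), Scn1a with Scn9a (0.32) and Scn2a with Scn9a (0.42).

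The signs that turned all belong to differences that had not passed. With the length score as a covariate, the interaction at P66 was 0.060 for Scn3a, 0.094 for Scn2a, 0.080 for Scn1a and 0.061 for Scn9a, and the change of the interaction with age was 0.011 for Scn2a and 0.0024 for Scn1a. With the same score the age difference was 0.030 for Scn1a in separated knockout, -0.022 for Scn2a in control knockout, -0.044 for Scn3a and -0.11 for Scn2a in separated wildtype (the 1 call there, edgeR adjusted p = 0.0398), and 0.077 for Scn3a and 0.083 for Scn1a in control wildtype animals. Age by genotype was then -0.014 for Scn3a, -0.0027 for Scn1a and -0.025 for Scn9a, and rearing at P22 was 0.0080 for Scn2a. In cohort 2 alone, the interaction at P66 was 0.012 for Scn3a, 0.16 for Scn2a, 0.20 for Scn1a and 0.15 for Scn9a, genotype at P66 was 0.043 for Scn2a and 0.017 for Scn1a, and rearing was 0.0069 for Scn3a, 0.036 for Scn2a and 0.10 for Scn1a at P66 and 0.033 for Scn2a and 0.0019 for Scn9a at P22. The age difference in cohort 2 was 0.048 for Scn2a and 0.15 for Scn1a in separated knockout, -0.056 for Scn2a in separated wildtype, and 0.041 for Scn3a and 0.0044 for Scn1a in control wildtype animals, with -0.020 for Scn9a in age by genotype and 0.059 for Scn1a in age by rearing. In cohort 1 alone, rearing at P22 was -0.045 for Scn3a and -0.048 for Scn1a, the age difference 0.0032 for Scn1a in separated knockout and -0.044 for Scn9a in control wildtype animals, and age by rearing 0.016 for Scn2a. With the pan-neuronal score the age difference was -0.013 for Scn2a in separated wildtype and 0.0060 for Scn1a in control wildtype animals, and with choroid plexus and oligodendrocyte scores rearing at P66 was 0.027 for Scn2a and 0.057 for Scn1a. For Scn2a in separated wildtype animals the age difference was -0.0032 with no count filter and -0.00086 with no cohort term, and for Scn1a in separated knockout animals it was 0.0024 with genes kept at 1 CPM in 7 libraries. Age by genotype for Scn9a was -0.0043 by limma-voom and -0.0040 with no cohort term.

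With 1 library left out at a time, the age difference of Scn1a ran over 0.057 to 0.096, that of Scn3a in control knockout over 0.16 to 0.24 and that of Scn9a over 0.28 to 0.37 in control knockout and 0.20 to 0.28 in separated wildtype animals, each with changed calls. The number of the 4 genes called was 1 to 2 between the ages, 0 to 2 in control knockout and 0 to 1 in separated wildtype animals. Signs turned, none of them called, for rearing at P22 (-0.0022 to 0.041 for Scn3a, -0.038 to 0.00090 for Scn2a, -0.0063 to 0.033 for Scn1a), rearing at P66 (-0.087 to 0.0022 for Scn2a, -0.056 to 0.029 for Scn1a) and genotype at P66 (-0.072 to 0.0091 for Scn2a). The same held for age in separated knockout (-0.082 to 0.072 for Scn1a, -0.032 to 0.15 for Scn9a), separated wildtype (-0.017 to 0.030 for Scn2a) and control wildtype animals (-0.066 to 0.0086 for Scn1a), and for age by genotype (-0.0063 to 0.071 for Scn1a, -0.026 to 0.061 for Scn9a) and by rearing (-0.061 to 0.024 for Scn2a, -0.053 to 0.025 for Scn1a). No paired analysis was possible because animal numbers run within each cohort and rearing group, so that a shared number names different animals. Scn9a has the fewest reads of the 4 genes, and its fits have the widest intervals.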
